A study of Mus musculus with 4 samples.

Results

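Metallothioneins and other metal-handling genes were examined in J774 cells, a mouse monocyte-macrophage line, after exposure to proteasome inhibitors. The 9 genes were taken by name: *Mt1*, *Mt2*, *Mtf1*, *Slc30a1*, *Fth1*, *Ftl1*, *Tfrc*, *Slc40a1* and *Slc11a1*. They made up 9 of 20133 genes and 13 of 39429 probes on the array, and all 9 were called well above background by the scanner software on all 4 arrays. J774 cells (J774.1 in the labels) were kept for 4 h in RPMI medium with FBS and antibiotics. The control culture held the solvent DMSO alone, and the other cultures held MG132, epoxomicin or an ONX compound at 1 μM. The treatment protocol describes MG132 as a proteasome inhibitor, epoxomicin as an inhibitor of the 20S proteasome and the ONX compound as an inhibitor of the β5 and β5i subunits. The treatment label of the ONX array names a different ONX compound from the one in that protocol, and the group is called ONX here after its title. Each culture gave RNA for 1 single-color array, all on 1 slide, so each value below is that of a single culture and no spread between cultures was measured. No test between conditions was possible, and all differences are descriptions of these 4 arrays.

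Signal refers to the brightness of a probe after the scanner software had subtracted the background. A difference is given on the log2 scale after the 75th percentile of each array had been subtracted. That percentile was lowest on the MG132 array, at a signal of 1453, and was 1612 on the ONX, 1654 on the DMSO and 1683 on the epoxomicin array, so a scaled difference for MG132 lies above the raw one. The error attached to a difference was propagated from the scanner software's own error of a spot, and came to ±0.20 for each of the 9 genes. The software put the error of a spot at about 10% of its signal for each of these genes on every array. For the 9 genes it therefore acts as a nearly fixed cut at 0.20, and not as an error measured for each probe. The spread between spots of one probe on one array was smaller, with a median SD of at most 0.0611 on the log2 scale, and neither error contains the variation between cultures. Differences under 0.0864 on the log2 scale, the spread that this SD gives a difference of 2 spots, are called within the spread between spots. Signals of different genes were not compared, because probes differ in brightness for the same amount of RNA. Of 10 monocyte-macrophage markers, 9 had a named probe and all 9 were above background on every array, with a summed signal from 296008 with MG132 to 394461 with DMSO. Of the markers of other cell types, *Ms4a1*, *Ncr1*, *Epcam*, *Col1a1*, *Alb* and *Hbb-bs* were not above background on any array, and *Cd3e*, *Krt5* and *Pecam1* were above it on all. The marker sums are of unscaled signals, and the MG132 array also had the lowest 75th percentile. After scaling, the 9 monocyte-macrophage markers had a median difference from DMSO of −0.16 with MG132, −0.15 with epoxomicin and −0.03 with ONX. The part of the lower marker signal with MG132 and epoxomicin in the results was not tested. A smaller share of expressing cells, less RNA per cell and a dimmer array cannot be told apart in such bulk RNA.

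Metallothioneins are small, cysteine-rich proteins that bind zinc and copper and can also bind toxic metals such as cadmium. Their genes are switched on by Mtf1, a zinc-finger transcription factor that senses free zinc and binds short DNA motifs called metal response elements, and *Slc30a1*, which encodes a zinc exporter of the plasma membrane, is a target of the same factor. Iron enters most cells through the transferrin receptor Tfrc, is stored in ferritin, a shell built from Fth1 and Ftl1 chains, and leaves through ferroportin, the product of *Slc40a1*. Iron regulatory proteins bind ferritin and *Tfrc* transcripts, block translation of the former and stabilize the latter when iron is scarce. Macrophages recycle iron from engulfed red cells and export it through ferroportin, while Slc11a1 (Nramp1) moves divalent metals out of the phagosome.

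The promoters of *Mt1*, *Mt2* and *Slc30a1* are shown because they hold the motif that Mtf1 is known to bind. The windows come from RefSeq on mouse build GRCm38.p6 and hold 250 bases before and 50 bases after the annotated start, on the plus strand for all of them, 5′ to 3′. They span chr8:94178839-94179138 for *Mt1*, chr8:94172368-94172667 for *Mt2* and chr1:191906531-191906830 for *Slc30a1*. Capitals mark matches to TGCACNC or TGCGCNC, the core of the metal response element, on either strand.
*Mt1*: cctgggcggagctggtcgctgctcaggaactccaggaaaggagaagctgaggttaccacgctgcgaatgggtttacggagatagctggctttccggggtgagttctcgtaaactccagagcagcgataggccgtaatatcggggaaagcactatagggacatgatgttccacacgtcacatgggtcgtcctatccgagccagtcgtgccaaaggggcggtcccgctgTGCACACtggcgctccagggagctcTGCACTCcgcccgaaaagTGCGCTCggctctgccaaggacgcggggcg
*Mt2*: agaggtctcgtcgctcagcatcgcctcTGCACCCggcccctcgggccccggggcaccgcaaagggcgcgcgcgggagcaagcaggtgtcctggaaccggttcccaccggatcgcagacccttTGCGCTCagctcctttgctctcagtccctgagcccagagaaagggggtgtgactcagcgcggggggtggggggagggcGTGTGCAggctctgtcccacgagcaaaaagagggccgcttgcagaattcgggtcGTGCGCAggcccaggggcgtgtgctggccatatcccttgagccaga
*Slc30a1*: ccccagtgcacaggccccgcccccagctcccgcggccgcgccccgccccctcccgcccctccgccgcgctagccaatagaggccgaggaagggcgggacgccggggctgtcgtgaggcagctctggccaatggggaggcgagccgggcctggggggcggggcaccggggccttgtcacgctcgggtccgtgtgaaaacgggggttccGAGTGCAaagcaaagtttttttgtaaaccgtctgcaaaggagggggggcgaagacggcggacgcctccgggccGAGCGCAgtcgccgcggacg

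Of the 9 genes, 8 had a promoter window in the RefSeq table (*Slc40a1* is the exception). The *Mt2* window held 4 matches, the *Mt1* window 3 and the *Slc30a1* window 2. Of 32851 mouse promoter windows of 300 bases, 25.7% held at least 1 match, 7.11% at least 2, 1.97% at least 3 and 0.517% at least 4. The matches in *Mt1* began at bases 228, 253 and 271 of the window, with 2 of them behind the annotated start, and all ran on the plus strand. In *Mt2* they began at bases 28, 123, 201 and 255, the last 2 on the minus strand. Both matches in *Slc30a1*, at bases 208 and 281, lay on the minus strand. The first of the 2 annotated *Tfrc* windows held 2 overlapping matches on opposite strands. No match was found in the windows of *Mtf1*, *Fth1*, *Ftl1* and *Slc11a1*, nor in the second window of *Tfrc*. The letters TGACNNNGC, the core of the antioxidant response element bound by Nrf2, occurred once in the *Mt2* and once in the *Slc30a1* window and in 12.4% of all windows, searched on both strands. These matches describe the sequences only, and binding was not measured.

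*Mt2*, *Mtf1*, *Slc30a1* and *Slc40a1* were higher with MG132 and with epoxomicin. On those arrays *Mt1*, the ferritin chains, *Slc11a1* and the brightest *Tfrc* probe lay within 0.26 of DMSO on the log2 scale. A second *Tfrc* probe was lower, at −0.60 with MG132 and −0.90 with epoxomicin. At a 2-fold threshold, 1 of the 9 genes was higher with MG132 (*Slc40a1*), beside 7.24% of the 13763 genes compared. With epoxomicin, 3 of the 9 were higher (*Slc40a1*, *Slc30a1* and *Mtf1*), beside 8.41% of 13869 genes. With ONX, 0 of the 9 were higher, beside 3.27% of 13793 genes. None of the 9 was 2-fold lower with any inhibitor, where the shares of all genes were 3.65% with MG132, 4.49% with epoxomicin and 1.41% with ONX. With counts this small, the shares of the 9 genes carry no result of their own, and the values of each gene follow. Over the 9 genes, differences from DMSO had a median of 0.25 for MG132, 0.10 for epoxomicin and 0.06 for ONX, while the medians of all genes compared were −0.02, −0.04 and −0.01.

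Among the metallothioneins, *Mt2* was higher with MG132 and epoxomicin, and *Mt1* was not. *Mt2* gave a signal of 147947 under epoxomicin and 109802 under MG132, against 76291 under ONX and 74887 under DMSO. The epoxomicin array was the highest and the MG132 array came next, while the ONX and DMSO arrays were within the spread between spots of each other. *Mt2* exceeded DMSO by 0.96 ± 0.20 with epoxomicin (1.94-fold), by 0.74 ± 0.20 with MG132 (1.67-fold) and by 0.06 ± 0.20 with ONX (1.05-fold). The value with epoxomicin fell just short of 2-fold and passed it, at 1.12, under normexp on all spots and under the shift to the reference genes. The value with ONX took the opposite sign, −0.01, under quantile normalization. *Mt1*, which encodes the other widely expressed metallothionein, gave its lowest signal, 136740, under ONX, and 178221 under MG132, 190382 under DMSO and 207735 under epoxomicin. After scaling, the ONX array was again the lowest, and the MG132 and epoxomicin arrays differed by less than the spread between spots. *Mt1* differed from DMSO by −0.44 ± 0.20 with ONX (1.36-fold lower), by 0.09 ± 0.20 with MG132 and by 0.10 ± 0.20 with epoxomicin. The small positive value with MG132 rested on the scaling between arrays and was −0.10 without it, and it was below 0 in 2 of 10 alternatives. The lower *Mt1* value with ONX stayed below 0 in all 10 alternatives, between −0.49 and −0.29.

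**Figure D1:**
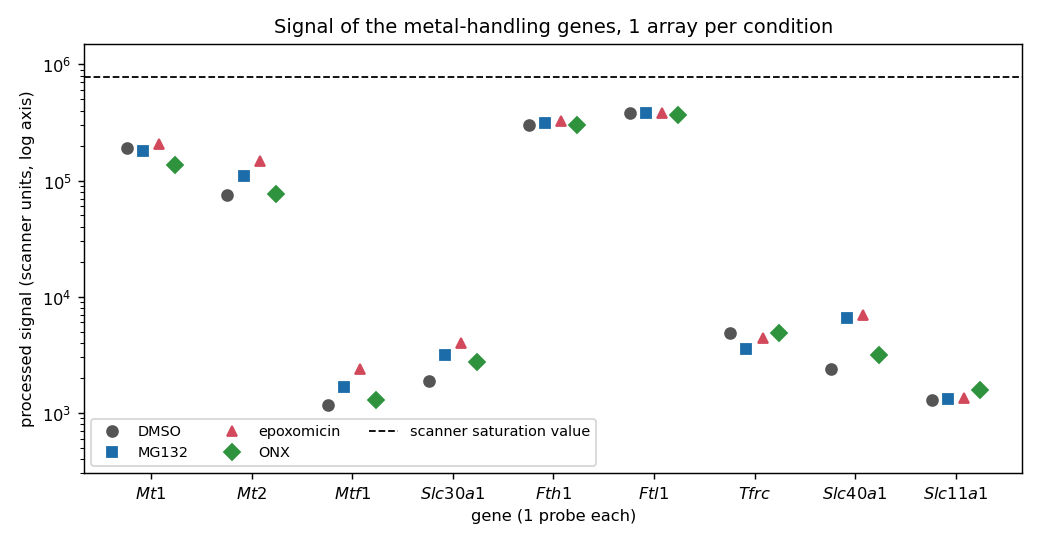
Processed signal (scanner units, log axis) of the probe that stands for each of the 9 genes, with 1 point per array and the scanner's saturation value of 779423 as a dashed line. Points may be compared within a gene and not between genes; *Mt2*, *Mtf1*, *Slc30a1* and *Slc40a1* have their lowest point with DMSO, and *Mt1* has its lowest with ONX.

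The 2 metallothioneins therefore differed from DMSO by unequal amounts on each array. Each was measured by 1 probe printed once, and whether either probe also binds the transcript of the other gene was not tested. With MG132 and epoxomicin *Mt2* lay well above DMSO while *Mt1* differed by less than the software error, and with ONX *Mt1* was lower while *Mt2* was not. *Mt1* lay at 17.5% to 26.7% and *Mt2* at 9.61% to 19.0% of the saturation value, and no spot on any array was marked as saturated. Differences spread less among the brightest probes in general. Among 211 genes with a geometric mean signal over the arrays of at least 100000, differences from DMSO had an SD of 0.331 for MG132, 0.334 for epoxomicin and 0.208 for ONX, against 0.709, 0.763 and 0.458 among 2036 genes between 10000 and 100000. *Mt1*, with a geometric mean of 176196, belongs to the brightest group and *Mt2*, with 98152, lies at its border. The *Mt2* differences with MG132 and epoxomicin lay above the 95th percentiles of the brightest group, 0.64 and 0.66. By its mean, *Mt2* belongs to the group between 10000 and 100000. There the 95th percentiles were 1.21 and 1.37, and the *Mt2* differences lay below them. The part of this narrower spread in the difference between *Mt1* and *Mt2* was not tested. In the brightest group the 5th percentile of the differences with ONX was −0.19, and *Mt1* lay below it.

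The other metallothioneins on the array did not follow *Mt2*. *Mt3*, best known from brain, differed from DMSO by 0.01 with MG132, −0.23 with epoxomicin and −0.09 with ONX. *Mt4*, known from stratified epithelia, had signals between 46.2 and 62.6 on the 4 arrays and differences of 0.04, 0.27 and 0.27. Under normexp on all spots *Mt4* was instead more than 2-fold lower with MG132 (−1.11), epoxomicin (−1.06) and ONX (−1.20), and *Mt3* was at −0.24, −0.43 and −0.34. Under normexp without outlier spots *Mt4* was at 0.18 with MG132.

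The zinc-sensing factor itself was measured by 3 probes. The brightest *Mtf1* probe reached a signal of 2383 under epoxomicin and 1668 under MG132, and read 1299.7 under ONX and 1165 under DMSO. All 4 arrays differed from their neighbors by more than the spread between spots, with epoxomicin highest and DMSO lowest. Relative to DMSO it was higher by 1.01 ± 0.20 with epoxomicin (2.01-fold), 0.70 ± 0.20 with MG132 (1.63-fold) and 0.19 ± 0.20 with ONX (1.14-fold). A second *Mtf1* probe, with signals of 1188 under epoxomicin, 879.6 under MG132, 581 under ONX and 474 under DMSO, gave larger differences of 1.30, 1.08 and 0.33. Both probes put the arrays in the same order. The third *Mtf1* probe was not above background on any array, with signals of 4.52 to 16.4, and gave no difference. The difference of *Mtf1* with epoxomicin was lowest, at 0.87, under normexp background correction on all spots. It was also below 1 in other settings, among them the shift to the median and quantile normalization (0.98).

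*Slc30a1*, the zinc exporter, was higher than DMSO with every inhibitor. Signals ran from 1892 on the DMSO array through 2724 (ONX) and 3119 (MG132) to 3964 (epoxomicin). Each step in this order was larger than the spread between spots, but that from MG132 to epoxomicin, 0.13, was within the software error. The increase over DMSO was 1.04 ± 0.20 with epoxomicin (2.06-fold), 0.91 ± 0.20 with MG132 (1.88-fold) and 0.56 ± 0.20 with ONX (1.48-fold). With ONX this was the largest difference among the 9 genes, and 92.0% of all genes compared had a smaller one. *Slc30a1* was above DMSO in all 10 alternatives with each inhibitor. Its difference with epoxomicin was as low as 0.97, under normexp, so that its place past 2-fold rested on the processing, as that of *Mtf1* did.

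*Slc40a1*, which encodes ferroportin, had the largest difference of the 9 genes with MG132 and with epoxomicin. Signals were 2406 under DMSO and 3151 under ONX, and 6491 under MG132 and 6886 under epoxomicin. The MG132 and epoxomicin arrays lay far above the others, and each array differed from the next by more than the spread between spots. The difference of epoxomicin from MG132, −0.13, was within the software error and turned to 0.09 without scaling. *Slc40a1* exceeded DMSO 3.07-fold under MG132 (1.62 ± 0.20), 2.81-fold under epoxomicin (1.49 ± 0.20) and 1.34-fold under ONX (0.43 ± 0.20). Ordered by increase, *Slc40a1* was gene 421 of 13763 with MG132, gene 592 of 13869 with epoxomicin and gene 1570 of 13793 with ONX. Across the 10 alternatives its difference ranged from 1.43 to 1.73 with MG132, from 1.42 to 1.65 with epoxomicin and from 0.38 to 0.46 with ONX.

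**Figure D2:**
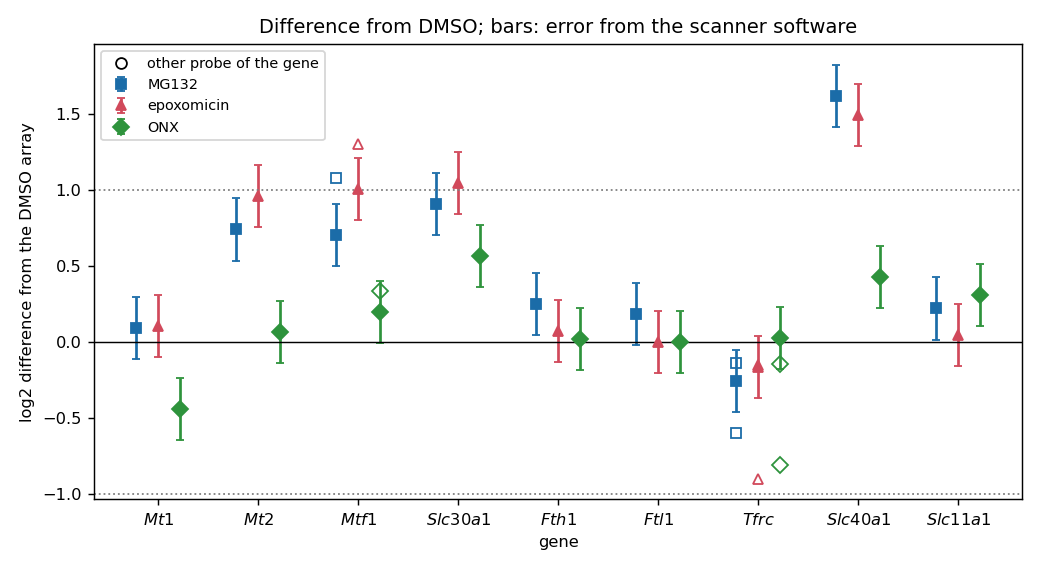
Log2 difference of each gene from the DMSO array. Filled points are the probe that stands for the gene, with bars of 1 error from the scanner software (about 0.20), open points are further probes of the gene, and dotted lines mark 2-fold. *Slc40a1* lies above the upper line with MG132 and epoxomicin, and *Slc30a1* and *Mtf1* reach it with epoxomicin.

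The ferritin chains differed little between arrays. *Fth1*, the heavy chain with the ferroxidase activity, ranged from a signal of 298050 (ONX) and 301589 (DMSO) to 315079 (MG132) and 322563 (epoxomicin). Scaled, it was above DMSO by 0.25 ± 0.20 with MG132, and by 0.07 and 0.02, each ±0.20, with epoxomicin and ONX. The ONX array was within the spread between spots of both the DMSO and the epoxomicin array. Without scaling the *Fth1* difference with MG132 was 0.06, and the sign of the epoxomicin and ONX differences turned in 1 and 3 of 10 alternatives. *Ftl1*, the light chain, had its lowest signal, 368950, under ONX and its highest, 385263, under epoxomicin, with 378300 under MG132 and 379311 under DMSO. Scaled, it was 0.18 ± 0.20 above DMSO with MG132, and with epoxomicin and ONX it differed from DMSO by less than the spread between spots. The value with MG132 was −0.004 without scaling. *Fth1* reached 38.2% to 41.4% and *Ftl1* 47.3% to 49.4% of the saturation value, in the range where the differences of all genes spread less. The RefSeq table lists 3 light-chain and 2 heavy-chain ferritin pseudogenes, of which 0 had a named probe, and whether the ferritin probes also bind their transcripts was not tested. Ferritin protein, which is set largely by translation, was not measured.

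**Figure D3:**
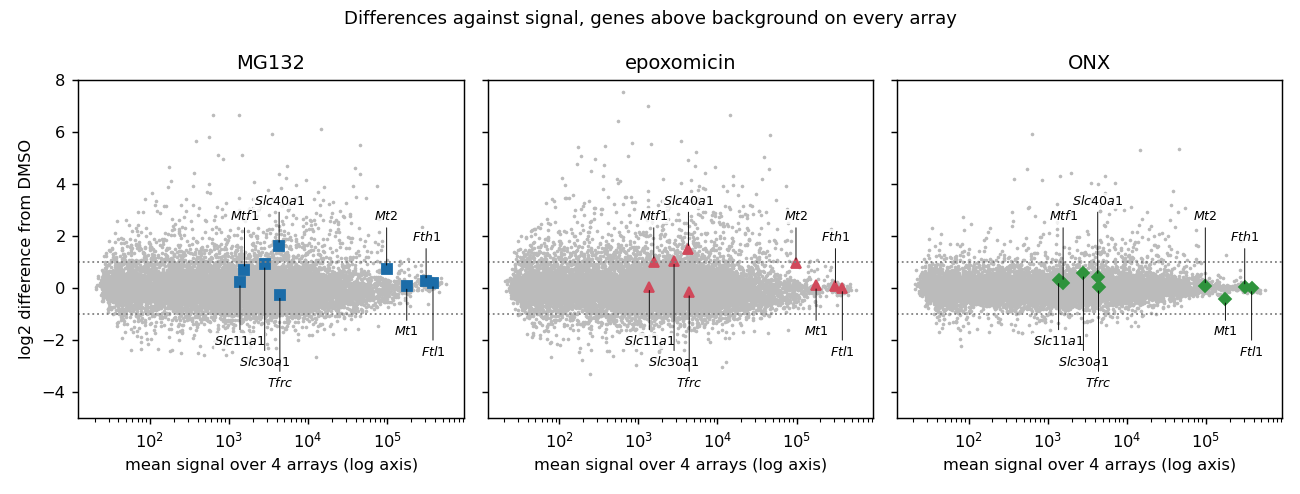
Log2 difference from DMSO against the geometric mean signal over the 4 arrays (log axis) for the 12730 genes above background on every array, in gray, with the 9 metal-handling genes in color and dotted lines at 2-fold. The gray cloud narrows above a signal of 100000, where *Mt1*, *Fth1* and *Ftl1* lie.

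*Tfrc*, the receptor for transferrin-bound iron, was printed 10 times with its brightest probe, which gave a view of the error within an array. This probe read 4866 under DMSO and 4832 under ONX, and 4416 under epoxomicin and 3575 under MG132. Its 10 spots ranged from 3293 to 3773 on the MG132 array, from 4083 to 4645 on the epoxomicin array, from 4432 to 5045 on the ONX array and from 4526 to 5128 on the DMSO array. Before scaling, the spots of the MG132 array lay below those of every other array and the DMSO and ONX spots overlapped. After scaling, the MG132 spots lay below all DMSO and ONX spots and overlapped those of the epoxomicin array. The SD over the 10 spots was between 0.0530 and 0.0670 on the log2 scale. Scaled, *Tfrc* was at −0.26 ± 0.20 relative to DMSO with MG132 (1.20-fold lower), at −0.16 ± 0.20 with epoxomicin and at 0.03 ± 0.20 with ONX. The other probes gave different sizes. A second *Tfrc* probe, printed once, read 1333 under DMSO against 726 (epoxomicin), 739.7 (ONX) and 772 (MG132), and its differences were −0.60 with MG132, −0.90 with epoxomicin and −0.81 with ONX. The third *Tfrc* probe read 157 under DMSO and 125 to 143 under the inhibitors, with differences of −0.14, −0.15 and −0.14. All 3 probes were lower than DMSO with MG132 and with epoxomicin, and they disagreed for ONX, where the mean over the probes was −0.31. The sign of the *Tfrc* value with ONX turned in 5 of 10 alternatives.

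**Figure D4:**
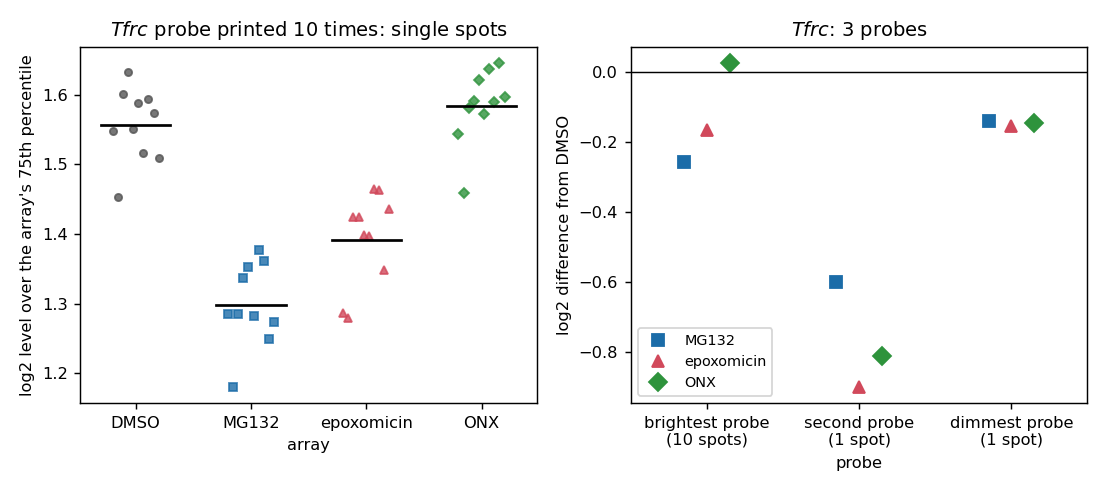
Left, log2 level of the single spots of the brightest *Tfrc* probe over the array's 75th percentile, with a line at the mean of the 10 spots on each array. Right, log2 difference from DMSO of the 3 *Tfrc* probes, of which the second lies furthest below 0 with all inhibitors and the brightest lies near 0 with ONX.

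*Slc11a1*, the metal transporter of the phagosome, read 1556 under ONX against 1351 (epoxomicin), 1318 (MG132) and 1289 (DMSO). The ONX array was the highest, and epoxomicin differed from DMSO by less than the spread between spots. Scaled, *Slc11a1* was above DMSO by 0.31 ± 0.20 with ONX, by 0.22 ± 0.20 with MG132 and by 0.04 ± 0.20 with epoxomicin. Without scaling the value with MG132 was 0.03. The value with epoxomicin took the opposite sign, −0.03, after a shift to the median of each array.

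Measured against the software error, 6 of the 9 genes were higher and 1 was lower than DMSO with MG132, where 30.9% and 33% of 13003 genes were. The genes higher with MG132 include *Fth1* and *Slc11a1*, which were at 0.06 and 0.03 without scaling. With epoxomicin 4 were higher and 0 lower, beside 30.4% and 35.3% of 13036 genes. With ONX 3 were higher and 1 lower, beside 22% and 21.9% of 12993 genes. The software error leaves out the variation between cultures, and these shares are to be read with that limit. *Slc30a1* and *Slc40a1* were higher by more than this error with every inhibitor, and *Mt2* and *Mtf1* with MG132 and epoxomicin.

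The inhibitors were compared with one another at the matched dose of 1 μM and time of 4 h. None of the 9 genes differed 2-fold between epoxomicin and MG132, beside 0.756% of 13628 genes higher and 0.719% lower with epoxomicin. The differences of epoxomicin from MG132 ran from −0.19 for *Ftl1* to 0.30 for *Mtf1*, each ±0.20. *Mtf1* and *Mt2* (0.22) were the 2 genes above that error and 0 were below it, where 11.3% and 11.5% of genes were, and *Mt1* lay at 0.01. Without scaling, where the MG132 array was dimmer, the differences of *Fth1*, *Ftl1*, *Slc40a1* and *Slc11a1* turned from below to above 0. With ONX, *Slc40a1* was 2.29-fold lower than with MG132 (−1.19 ± 0.20), beside 3.05% of 13703 genes at least 2-fold lower. Against epoxomicin it was 2.09-fold lower (−1.07 ± 0.20), beside 4.38% of 13792 genes, and at −0.998 after the shift to the median it was no longer 2-fold. None of the 9 was 2-fold higher with ONX than with MG132 (1.07% of genes) or epoxomicin (1.56%). *Mt2* followed with −0.68 against MG132 and −0.89 against epoxomicin, and *Mtf1* with −0.51 and −0.81. *Mt1* was lower with ONX by a like amount on both comparisons, −0.53 and −0.54, and *Slc30a1* differed by −0.34 and −0.48. With its brightest probe *Tfrc* was higher with ONX than with MG132 by 0.29, which exceeds the software error, while its other probes gave −0.01 and −0.21 and the mean over the probes 0.02. *Slc11a1* was higher than with epoxomicin by 0.26. Beyond the software error, 6 of the 9 were lower and 1 higher with ONX than with MG132, beside 24.5% and 28% of genes, and 5 were lower and 1 higher than with epoxomicin, beside 26.1% and 32%. The counts against MG132 rest in part on the scaling. Without it *Slc30a1* (−0.195) and *Fth1* (−0.08) came within the error of 0.204, and *Slc11a1* (0.24) went beyond it. These comparisons share arrays with those against DMSO and are not independent of them.

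Genes with a like pattern were sought among the 12730 genes above background on all arrays, by the root mean square gap of their 3 differences from DMSO. The closest to *Slc30a1* were *Qtrt2*, *Slc30a2*, *Lars*, *Alkbh1* and *Mdn1*, with gaps of 0.024 to 0.037. *Slc30a2* is itself a zinc exporter of the same family, with a low signal whose differences turned below 0 under normexp on all spots. The closest to *Mt2* were *Atxn1*, *Vmn1r52*, *Cdkn2aip*, *Stat3* and *Gcnt2* (0.033 to 0.048), and the closest to *Mt1* were *Tesmin*, *Hecw2*, *Tlcd1*, *Olfr871* and *Rab3c* (0.032 to 0.048). Most of these were dim too. Under DMSO *Olfr871* read 43.8, *Tesmin* 79.6, *Tlcd1* 85.7 and *Vmn1r52* 89.5, while *Stat3* read 7680 and *Rab3c* 40351. For *Tfrc* they were *Mpc2*, *Gpn3*, *Sgcb*, *Syap1* and *Sbf2* (0.010 to 0.018). Within a gap of 0.1 there were 43 genes for *Mt1*, 50 for *Mt2*, 73 for *Slc30a1* and 787 for *Tfrc*. These likenesses rest on 3 differences that share the DMSO array.

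The wider metal-handling pathway was followed through 73 further genes in 9 lists, of which 72 had a named probe. Of the 57 that could be compared with MG132, 4 were at least 2-fold higher (7.02%). Of 59 with epoxomicin, 4 were higher (6.78%), and of 58 with ONX, 2 were (3.45%). Of the 2 with ONX, 1 is *Slc30a3*, which was above background on the ONX array alone and entered the comparison only as a bound. The shares of all genes were 7.24%, 8.41% and 3.27%. None of the listed genes was 2-fold lower, where 3.65%, 4.49% and 1.41% of all genes were. The median differences of 0.01, −0.03 and 0.03 lay near 0.

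Among genes of heme breakdown, *Hmox1* had the largest difference. It encodes heme oxygenase, which releases iron from heme. It read 8672 under DMSO, 20191 under ONX, 42152 under MG132 and 43209 under epoxomicin, so its differences were 2.47 with MG132, 2.29 with epoxomicin and 1.26 with ONX. A second *Hmox1* probe gave 2.29 with MG132 and 1.95 with epoxomicin. It was the 1 gene of its list past 2-fold with each inhibitor.

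Among genes of iron sensing and ferritin turnover, *Fbxl5* was the 1 of 7 genes compared that passed 2-fold with MG132 and epoxomicin. It encodes the iron-sensing subunit of the ubiquitin ligase that marks iron regulatory protein 2 for degradation by the proteasome. It read 990.3 under DMSO, 1421 under ONX, 2403 under MG132 and 4198 under epoxomicin, and its differences were 1.47 with MG132, 2.06 with epoxomicin and 0.56 with ONX. The other values of this kind below keep that order of inhibitors. The iron regulatory proteins were near DMSO, *Aco1* at −0.05, −0.06 and 0.08 and *Ireb2* at −0.09, −0.002 and 0.08. Under normexp on all spots both were lower, *Aco1* at −0.92, −1.15 and −0.83 and *Ireb2* at −0.58, −0.57 and −0.44. Under normexp without outlier spots *Aco1* was instead at 0.15 with MG132 and 0.24 with ONX, so the 2 forms of this correction gave opposite signs there. *Ncoa4*, the receptor that carries ferritin to the lysosome, was lower with all inhibitors, at −0.39, −0.30 and −0.46. *Slc11a2*, the iron importer DMT1, was at 0.31, 0.24 and 0.28.

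Among zinc exporters, *Slc30a2* was dim, with signals from 44.2 under DMSO to 90.04 under epoxomicin, and had differences of 0.92, 1.00 and 0.58. These turned to −0.87, −0.96 and −0.96 under normexp on all spots, the 1 of 10 alternatives in which their sign changed. The direction for *Slc30a2* thus did not hold under every setting. *Slc30a3* was above background on the ONX array alone, with a signal of 33.2, and was at least 2.32-fold higher there than with DMSO, a bound that fell to 0.36 on the log2 scale under normexp without outlier spots. *Slc39a10*, a zinc importer known to be repressed by Mtf1, was at 0.57 with MG132, 0.36 with epoxomicin and 0.10 with ONX, and at 0.003, −0.18 and −0.45 under normexp on all spots. None of the 12 zinc importers compared was 2-fold from DMSO with any inhibitor. In mitochondria, *Slc25a37*, the iron importer mitoferrin, was at 1.24, 0.88 and 0.63, and its second probe gave 0.92, 0.48 and 0.36. *Sco1*, a copper chaperone of cytochrome c oxidase, was at 1.27, 1.58 and 0.41, with 1.02, 1.09 and 0.36 from a second probe, and was not 2-fold under normexp on all spots (0.35, 0.59 and −0.36). The 8 reference genes had median differences of −0.11, −0.14 and −0.03.

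**Figure D5:**
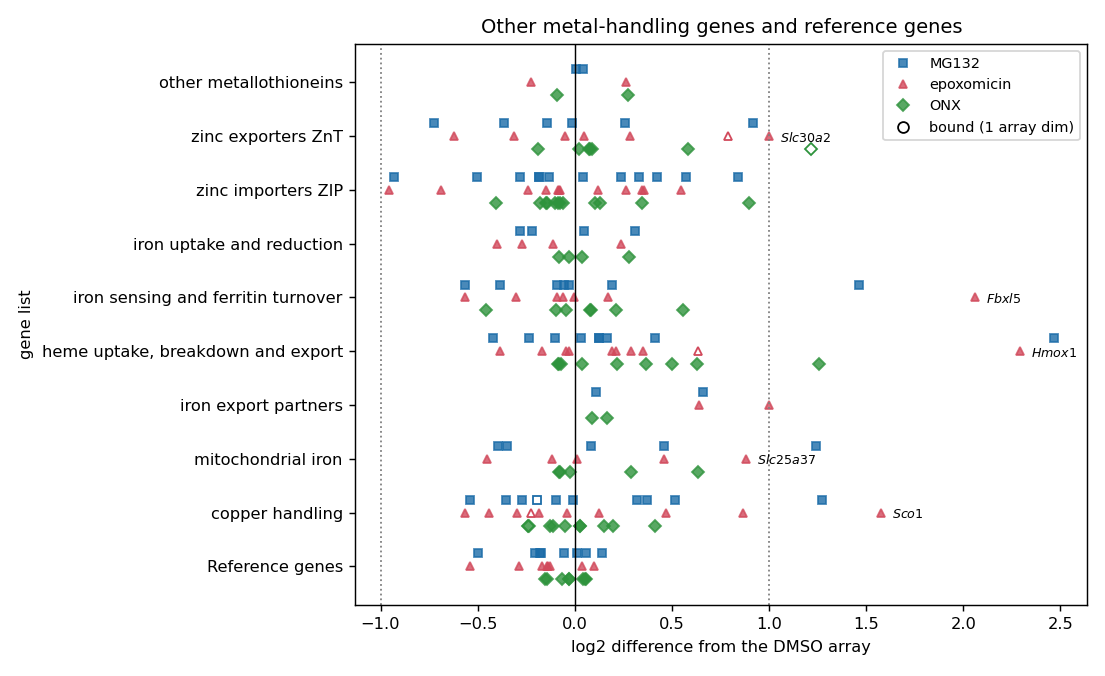
Log2 difference from the DMSO array for each measured gene of the 9 further metal-handling lists and of the reference genes, with 1 row per list and dotted lines at 2-fold. Open points are bounds, where 1 array was not above background. *Hmox1*, *Fbxl5* and *Sco1* lie furthest to the right with epoxomicin, and most other genes lie between the dotted lines.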

How the data were processed

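RNA of J774 cells was measured on 4 single-color (Cy3) mouse arrays, 1 per condition, with no replicates. The authors deposited what Feature Extraction 10.7.1.1 wrote for each spot: its raw intensity, its intensity after background subtraction, an error and detection calls, none scaled between arrays. A second deposited table, from GeneSpring, holds log2 values (39483 entries with column medians of −0.05, 0.02, −0.02 and 0.01), whose centring per probe is not stated in the sources used here. Differences between its columns matched those computed here to a median of 0.033 or less, and it served as an alternative. The paper's methods name a human design, and the file headers a mouse one.

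Control spots and outlier spots (159 to 194 of 43020 per array) were left out, and log2 of the processed intensity minus the array's 75th percentile was taken. Between 60.3% and 63.1% of spots were well above background, and the number of arrays limits the precision. Of 39429 probes, 26581 (67.4%) were named through their RefSeq accession (GRCm38.p6 table). The probe with the highest mean stood for a gene. A probe not above background on the dimmer array has only a bound: the higher of its own signal and the lowest signal above background there (14.7 to 20.3). Genes were counted at 2-fold. Genes named are the 9 members, listed genes past 2-fold (at most 6 per list), *Hmox1*, *Aco1*, *Ireb2*, *Fbxl5*, *Ncoa4*, *Slc11a2*, *Mt3*, *Mt4* and *Slc39a10*, and the 5 nearest genes of *Mt1*, *Mt2*, *Slc30a1* and *Tfrc*. The members and lists were chosen with earlier results of these data known. *Slc39a5* and *Cd68* had no named probe, and 1 marker of another cell type is not reported here. Columns of other samples numbered 0.

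Alternatives were normexp background correction (offset 50, on median spot signals) with and without outlier spots, quantile normalization, shifts to the median, to the 75th percentile of detected probes or to reference genes (*Actb*, *Gapdh*, *Hprt*, *Ppia*, *Rplp0*, *Sdha*, *Tbp*, *Ywhaz*), no scaling, the authors' table, the mean over probes, the signal in place of bounds, and for counts other thresholds and filters. R 4.3.3 (limma 3.58.1) and Python 3.11.15 (matplotlib 3.10.9, numpy 2.4.6, pandas 2.3.3, scipy 1.17.1) were used, and the calculations were tested on simulated data.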

Additional observations from a re-analysis of the deposited data

How the results depend on the processing

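Across 10 alternatives, 434 of 540 differences of the 9 genes moved by less than the spread between spots and 106 by more, and 23 of 30 medians stayed within that limit. Across 14 alternatives 78 of 84 counts stayed within 1.5-fold. Of the counts and medians of the wider lists 713 of 810 did, and of the differences of single listed genes 379 of 519. *Slc30a2* with epoxomicin turned to −0.96 under normexp on all spots. With normexp on all spots the 9 genes had a median difference of 0.18 with ONX, 0.28 with epoxomicin and 0.42 with MG132, after a shift to the median it was 0.15 with MG132, after a shift to the reference genes 0.36 with MG132 and 0.26 with epoxomicin, and without scaling 0.063 with MG132. Of the 9 genes, the count higher with epoxomicin was 1 in place of 3 under normexp without outlier spots, beside 695 of 13858 genes compared. It was also 1 under the shift to the median, beside 1047 of 13918. Under the reference genes it was 4, beside 1498 of 13754, and the count with MG132 was 2 in place of 1, beside 1210 of 13672. At 4-fold the counts were 0 with MG132 and 0 with epoxomicin, beside 1.96% and 2.42% of all genes. At 1.5-fold the count was 4 with MG132, beside 14.95%.

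The median over all genes moved with normexp on all spots to −0.27 with MG132, −0.30 with epoxomicin and −0.17 with ONX, with the shift to the median to −0.12 with MG132, with the reference genes to 0.12 with epoxomicin, and without scaling to −0.20 with MG132. With normexp on all spots 2525, 3028 and 2707 genes were 2-fold lower with MG132, epoxomicin and ONX, against 502, 623 and 194, and 470, 568 and 192 were higher, against 997, 1166 and 451. Without outlier spots normexp gave 601, 695 and 214 higher and 283, 378 and 74 lower. The cause was not tested. No paired analysis was possible because each condition has 1 array, and for the same reason no array could be left out. Signal over background limited *Slc30a2*, *Slc30a3*, *Mt4*, *Aco1*, *Heph* and *Sco1*.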

Other observations

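A few further genes of zinc, iron and copper handling, all short of 2-fold after the scaling used here, were picked after their values were seen. *Slc39a13*, a zinc transporter of the secretory pathway, read 1105 under DMSO, 812 under ONX, 579 under epoxomicin and 509 under MG132, and its differences from DMSO on the log2 scale were −0.93 with MG132, −0.96 with epoxomicin and −0.41 with ONX. In the same order *Slc30a5*, which loads zinc into the secretory pathway, was at −0.72, −0.62 and −0.19. *Slc39a4*, a zinc importer of the plasma membrane, was higher with every inhibitor, at 0.84, 0.54 and 0.90, with the ONX array highest at a signal of 3127 against 1722 with DMSO. *Heph*, a ferroxidase that works with ferroportin, was at 0.11, 1.00 and 0.09, on signals of 37.7 to 80.7, and turned to −1.29, −0.87 and −1.18 under normexp background correction on all spots. *Atp7a*, a copper exporter, was at 0.52, 0.87 and 0.15.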
